A study of Mus musculus with 6 samples.

Results

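The genes described here make, recycle and use the nicotinamide coenzymes NAD and NADP in the hearts of mouse embryos at embryonic day (E) 18.5. They are 10 of the 13809 genes in the deposited count table: the riboside kinases *Nmrk2* and *Nmrk1*, the salvage enzymes *Nampt* and *Naprt*, the enzymes of the last step of synthesis *Nmnat1* and *Nmnat3*, the NAD kinases *Nadk* and *Nadk2*, the transhydrogenase *Nnt* and the deacetylase *Sirt1*. The 10 genes were chosen by name, with the comparison of *Pkm1*-knockout (KO) and wild-type (WT) hearts already known, so the calls and intervals that the fit over all genes gave for them are a description: no p is given for them, and nothing is supported with them. All 10 were found in the table, and all 10 were among the 13804 genes that passed the filter on low counts. *Nnt* and the NAD kinases act on finished NAD and NADP, and *Sirt1* consumes NAD, so the set is broader than synthesis and salvage.

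NAD carries electrons between glycolysis, the citric acid cycle and the respiratory chain, and it is also cut up as a substrate by sirtuins, PARPs and *Cd38*, so a cell has to keep replacing it. Most tissues recycle the nicotinamide that these enzymes release: *Nampt* turns it into nicotinamide mononucleotide, and the Nmnat enzymes add the adenylate that completes NAD. Nicotinamide riboside enters the same route through the kinases *Nmrk1* and *Nmrk2*, of which *Nmrk2* is known for its expression in striated muscle, and nicotinic acid enters through *Naprt*.

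The libraries came from E18.5 hearts, 3 from WT and 3 from KO embryos, and the study names ventricular tissue where the labels name the heart. KO embryos carried, on both alleles, a CRISPR/Cas9 deletion inside the exon of *Pkm* that the *Pkm1* transcript alone uses, which leaves an early stop in the isoform of pyruvate kinase typical of adult muscle. They were the offspring of heterozygous parents, on a background that began with hybrids of C57BL/6J and DBA/2, and every cell of the embryo carried the deletion. The comparison asks how the transcripts of the heart differ in this mutant, which lacks PKM1. The paper also reports lower PKM2, maybe as a secondary effect, and says that the phenotype may therefore not come from PKM1 loss alone.

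WT libraries held 15597756 to 19875546 counts and KO libraries 15567624 to 18577404. Because the columns name only the genotype, the libraries of each are called a, b and c in column order. Levels are given as CPM, counts relative to the library total after TMM scaling, on which 3 counts correspond to 0.153 to 0.197 CPM, counting error only. The targeted gene *Pkm* was at 1318 ± 41.1 CPM in WT and at 542 ± 10.1 CPM in KO (SD, n = 3 each), and counts per gene do not separate its isoforms. All WT libraries held transcripts of *Kdm5d*, *Ddx3y*, *Eif2s3y* and *Uty*, which lie on Y, and none of the KO libraries did, whereas the level of *Xist*, which is transcribed from the inactive X, went from 5.26 to 2285 CPM (log2 fold change 8.76), so sex and genotype cannot be told apart in these libraries. None of the 10 NAD genes lies on X or Y. Of the 7 cardiomyocyte markers all were present, with 42657 to 50446 CPM summed over them in each library.

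At a Benjamini-Hochberg adjusted p under 0.05 in the quasi-likelihood test of edgeR, referred to below as the threshold, 4179 of the 13804 genes differed between genotypes, which is 30.3% of those tested. Of the 10 NAD genes 3 passed it: *Nmrk2*, which was higher in KO hearts, and *Nnt* and *Sirt1*, which were lower. Without WT c, *Nadk* passed as well, as higher, and *Nampt*, as lower. Over all genes 14.6% passed as higher and 15.7% as lower, and 6.19% passed with a change of at least 1.5-fold, as 1 NAD gene did. For 7 of the 10 genes the KO libraries did not overlap with the WT libraries, 4 of them lying above WT and 3 below, and 42.4% of all genes parted in this way. The median log2 fold change was 0.10 over the 10 genes and 0.00172 over all genes tested. Because the genes were selected on this contrast, nothing is read from these counts.

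**Figure D1:**
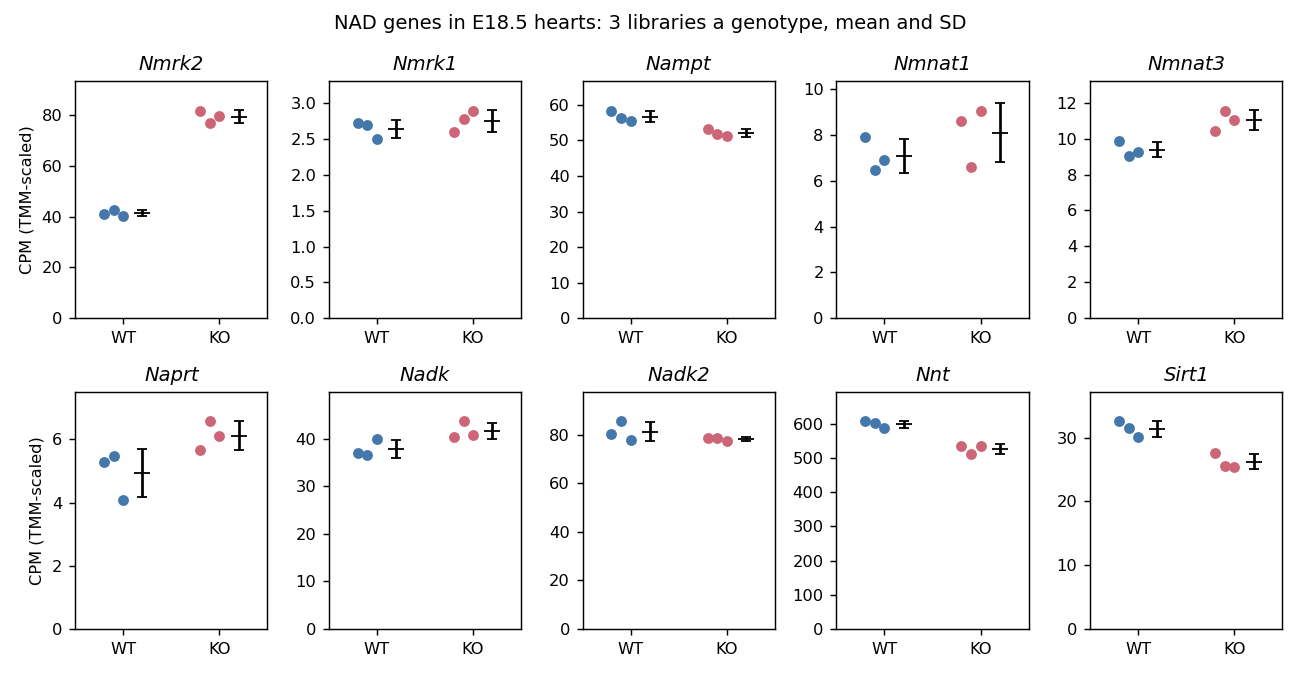
Level of each of the 10 NAD genes in every library, in CPM scaled by TMM on an axis that starts at 0, with WT in blue, KO in red and bars for the mean ± SD of 3 libraries. *Nmrk2* lies between 40.3 and 42.5 CPM in WT and between 76.9 and 81.7 CPM in KO, whereas the groups of *Nmrk1*, *Nmnat1* and *Nadk2* overlap.

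The riboside kinases phosphorylate nicotinamide riboside to nicotinamide mononucleotide. *Nmrk2* lies on chr10:81198170-81202051 (GRCm38, minus strand) and *Nmrk1* on chr19:18631950-18652428 (plus strand). Their coding sequences are 645 bases for *Nmrk1* and 588 bases for *Nmrk2* in GENCODE M21, and 66.3% of the 572 aligned bases are identical. The first 90 bases that align without a gap, coding positions 9 to 98 of *Nmrk1* and 6 to 95 of *Nmrk2*, are printed to show how far apart the paralogs are for assigning reads, with the differing bases in capitals.
*Nmrk1*: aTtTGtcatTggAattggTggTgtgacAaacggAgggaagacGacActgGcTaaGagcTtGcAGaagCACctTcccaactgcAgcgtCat
*Nmrk2*: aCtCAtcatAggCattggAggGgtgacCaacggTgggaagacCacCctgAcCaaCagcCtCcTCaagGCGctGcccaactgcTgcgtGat
In this stretch 66 of the 90 bases are identical, and the longest identical run over the whole alignment is 21 bases, so no 50-base word of one coding sequence can occur in the other along it.

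*Nmrk2* was at 41.1, 42.5 and 40.3 CPM in WT a, b and c and at 81.7, 76.9 and 79.5 CPM in KO a, b and c. The lowest KO library was 1.81 times the highest WT library, so the genotypes lay far apart relative to the spread within each. The mean went from 41.3 ± 1.10 to 79.3 ± 2.40 CPM (SD, n = 3 each), 1.92-fold, with a log2 fold change of 0.94 (standard error, SE, 0.0498, 95% interval 0.84 to 1.04). Behind these values stand 614 to 833 counts in a WT library and 1217 to 1541 in a KO library. Of all genes tested, 368 had a larger absolute log2 fold change.

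*Nmrk1* was at 2.72, 2.70 and 2.50 CPM in WT and at 2.60, 2.78 and 2.90 CPM in KO. The groups overlapped, and only 38 to 54 counts a library were available, which by counting alone gives a coefficient of variation of 14.5%. Its log2 fold change of 0.06 had an interval of -0.34 to 0.45, so a change of the size measured for *Nmrk2* lies outside it. With a library left out the value ran from 0.02 to 0.10.

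Per kilobase of exon, *Nmrk2* was at 22.3 ± 0.59 and *Nmrk1* at 0.716 ± 0.034 CPM per kb in WT hearts. The level of *Nmrk2* was 31.2 ± 1.05 times that of *Nmrk1* in WT and 57.4 ± 4.49 times in KO (SD, n = 3 libraries). Counting alone gives *Nmrk1* a coefficient of variation of 14.5%, so these SDs are narrower than its counts allow for the ratio. With the longest transcript of each gene as its length these ratios were 16.4 and 30.2, since the exons of *Nmrk1* joined over its transcripts are longer than any one of them.

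The bases just upstream of the 2 genes are printed from the RefSeq promoter table (GRCm38.p6), each up to the first annotated base of the gene, because *Nmrk2* was higher in KO hearts while the groups of its paralog overlapped. The capitals mark the matches found for the motifs listed after them.
*Nmrk2*, chr10:81202052-81202287, minus strand: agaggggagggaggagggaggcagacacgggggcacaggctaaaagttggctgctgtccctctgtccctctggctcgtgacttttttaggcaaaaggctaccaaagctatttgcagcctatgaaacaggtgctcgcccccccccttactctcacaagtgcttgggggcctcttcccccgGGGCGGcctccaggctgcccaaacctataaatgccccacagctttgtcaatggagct
*Nmrk1*, chr19:18631766-18631949, plus strand: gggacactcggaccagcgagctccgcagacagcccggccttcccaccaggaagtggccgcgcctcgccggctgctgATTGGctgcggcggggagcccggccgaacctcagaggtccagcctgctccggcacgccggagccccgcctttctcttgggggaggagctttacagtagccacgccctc
The *Nmrk2* stretch has 236 bases with 58.5% G or C, and the *Nmrk1* stretch 184 bases with 71.2%.

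Both strands of the 250 bases upstream of each start were searched for 4 motifs. These were the CCAAT box, the Sp GC box with the letters GGGCGG, the E-box with the letters CACGTG and the DR1 element, a direct repeat bound by PPAR receptors, and none of them contains another. The table held 9 windows for 7 of the 10 genes, without *Naprt*, *Nadk2* and *Nnt*. The *Nmrk2* window held 1 GC box and no other match, and the *Nmrk1* window held 1 CCAAT box, read on the opposite strand. GC boxes were most frequent upstream of *Sirt1*, with 6, and *Nampt*, with 5. CCAAT boxes were also found upstream of *Nmnat1* and *Nadk*, 1 each, and E-boxes upstream of *Sirt1*, with 2, and *Nadk*, with 1. Over 32851 promoters the CCAAT box was found in 33.9%, the GC box in 32.7%, the E-box in 6.02% and the direct repeat in 0.0335%. No window of the 7 genes held the direct repeat, which says only that these letters are not there.

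The antisense gene *Atcayos* spans *Nmrk2* on the other strand, and 12.2% of the 50-base words of the *Nmrk2* exons also occur, reversed, in its exons. *Atcayos* was at 9.55 ± 0.71 CPM in WT and at 11.4 ± 0.94 CPM in KO (SD, n = 3 each; log2 fold change 0.25, Benjamini-Hochberg adjusted p = 0.0714 in edgeR's quasi-likelihood test) and did not pass the threshold. The sources used here do not state whether counting used strand, so reads of the overlap cannot be assigned to either gene. Other genes near *Nmrk2* also differed between genotypes, as did 30.3% of all genes tested. In a window of 50 kb on either side, set after values had been seen, *Atcay*, which overlaps with the same antisense gene and encodes the brain protein caytaxin, was at 7.49 ± 1.15 CPM in WT and at 11.9 ± 0.36 CPM in KO (log2 fold change 0.68, adjusted p = 4.13e-05 in the same test). *Zfr2* rose with a log2 fold change of 0.41 (adjusted p = 9.44e-04) and *Eef2*, the translation elongation factor, fell with -0.12 (adjusted p = 2.72e-04). *Zbtb7a* passed with 0.14 (adjusted p = 0.0445, libraries overlapping), a call lost in 6 of 13 other settings (adjusted p up to 0.254). *Pias4* and *Dapk3* did not pass, with log2 fold changes of 0.06 and -0.15.

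*Nampt* and *Naprt* attach phosphoribosyl groups to nicotinamide and nicotinic acid, and *Nampt* is the rate-limiting enzyme of the salvage route. *Nampt* (chr12:32819545-32853349, plus strand) was at 58.4, 56.2 and 55.5 CPM in WT and at 53.3, 51.8 and 51.2 CPM in KO. Every KO library was below every WT library, by a small margin. The log2 fold change was -0.12 (SE 0.0502, 95% interval -0.22 to -0.02), -8.06% for the mean, and it missed the threshold, which it passed in 1 of the 13 other settings, with WT c left out. The lincRNA gene *Gdap10*, which overlaps with *Nampt* on the same strand, fell from 7.58 ± 0.46 to 5.83 ± 1.00 CPM (log2 fold change -0.38, adjusted p = 0.0340 in the same test), a call lost in 5 of 13 other settings (adjusted p up to 0.173), and no 50-base word of the *Nampt* exons recurs elsewhere in the annotated transcripts.

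*Naprt* (chr15:75890956-75894481, minus strand) was at 5.27, 5.46 and 4.07 CPM in WT and at 5.67, 6.57 and 6.12 CPM in KO. WT c lay below the other WT libraries, with 62 counts. The log2 fold change of 0.29 had a 95% interval of -0.0004 to 0.59 and did not pass. Without WT c it was 0.18, below the value of *Nmnat3* in the same setting, 0.22. *Naprt* shares 9.32% of its 50-base words with *Eef1d* on the same strand. That gene, which encodes a translation elongation factor subunit, was at 87.1 ± 3.46 CPM in WT and at 96.4 ± 3.64 CPM in KO (log2 fold change 0.15, adjusted p = 0.0127 in the same test, but 0.0774 without WT a and 0.0915 without KO a), and reads of the shared part are uncertain.

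Per kilobase of exon, *Nampt* was at 11.2 CPM per kb in WT and 10.3 in KO, and *Naprt* at 2.11 and 2.61. The level of *Nmrk2* was 1.99 ± 0.07 times that of *Nampt* in WT and 4.15 ± 0.098 times in KO (SD, n = 3 libraries each). The ratio in each KO library, 4.04 to 4.23, was above that in each WT library, 1.92 to 2.06.

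The Nmnat enzymes carry out the last step of NAD synthesis, *Nmnat1* in the nucleus and *Nmnat3* in mitochondria. *Nmnat1* (chr4:149467572-149485202, minus strand) was at 7.93, 6.48 and 6.90 CPM in WT and at 8.64, 6.63 and 9.07 CPM in KO. KO b lay among the WT libraries, and the coefficient of variation was 16.0% in KO against 8.63% from counting alone. Its log2 fold change of 0.20 had an interval of -0.06 to 0.47, and it was 0.12 without KO c, 0.13 without WT b and 0.32 without KO b.

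*Nmnat3* (chr9:98287435-98420438, plus strand) was at 9.85, 9.03 and 9.26 CPM in WT and at 10.4, 11.6 and 11.1 CPM in KO. All KO libraries were above the WT libraries, the nearest pair differing 1.06-fold. The log2 fold change was 0.23 (95% interval 0.02 to 0.44) and missed the threshold. *Nmnat3* lies on the chromosome of *Pkm*, 38.6 Mb away, and 243 of 743 tested genes on that chromosome passed the threshold (32.7%).

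**Figure D2:**
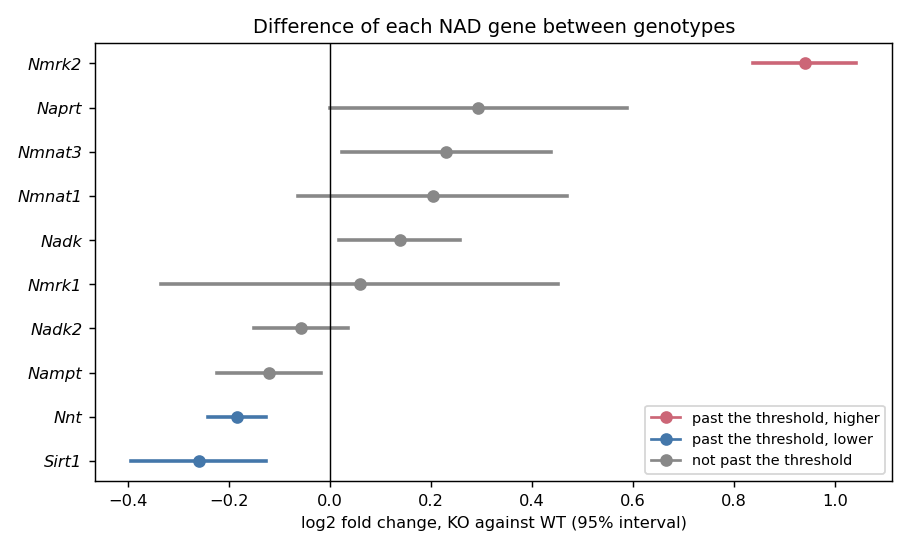
Log2 fold change of each NAD gene in KO against WT hearts, with its 95% interval from edgeR's quasi-likelihood fit on the horizontal axis. *Nmrk2* stands at 0.94, *Naprt* at 0.29 (0.18 without WT c) and the lowest gene, *Sirt1*, at -0.26.

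NAD kinases make NADP, *Nadk* in the cytosol and *Nadk2* in mitochondria, and *Nnt* uses the proton gradient of the inner mitochondrial membrane to pass hydride from NADH to NADP. *Nadk* (chr4:155562378-155591001, plus strand) was at 37.1, 36.6 and 40.1 CPM in WT and at 40.5, 43.7 and 40.8 CPM in KO. WT c nearly reached the lowest KO library. The log2 fold change of 0.14 (95% interval 0.02 to 0.26) missed the threshold, which *Nadk* passed in 1 of the 13 other settings, with WT c left out.

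*Nadk2* (chr15:9071260-9110891, plus strand) was at 80.4, 85.5 and 77.9 CPM in WT and at 78.5, 78.7 and 77.4 CPM in KO. The groups overlapped, and the interval of its log2 fold change, -0.15 to 0.04, is the range the libraries allow at this depth. The value itself was -0.06, and with a library left out it ran from -0.09 to -0.02.

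*Nnt* (chr13:119335448-119408997, minus strand) was the most abundant of the 10 genes, at 607, 603 and 587 CPM in WT and 536, 511 and 534 CPM in KO. No KO library reached the lowest WT library. The mean was 599 ± 10.7 CPM in WT and 527 ± 14.0 CPM in KO (SD, n = 3 each), a difference of -12.0%, with a log2 fold change of -0.18 (SE 0.0279, 95% interval -0.24 to -0.13). Mice of the C57BL/6J strain, a founder of this background, carry a deletion within *Nnt*, and the share of that allele in these embryos was not tested. Of the 7 cardiomyocyte markers 6 fell in KO hearts and *Myh7* rose, beside 15.7% of all genes that passed as lower and 14.6% as higher. The sum of the 7 markers was 47476 to 50446 CPM in WT and 42657 to 43676 CPM in KO. The part of this shift in the level of *Nnt* was not tested, and in bulk tissue fewer cells of a type and less RNA per cell cannot be told apart.

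*Sirt1* (chr10:63319005-63381704, minus strand) encodes a nuclear deacetylase that uses NAD as a co-substrate. It was at 32.5, 31.5 and 30.1 CPM in WT and at 27.6, 25.6 and 25.4 CPM in KO. All KO libraries were below all WT libraries. The mean went from 31.4 ± 1.23 to 26.2 ± 1.18 CPM (SD, n = 3 each), a difference of -16.5%, with a log2 fold change of -0.26 (SE 0.0650, 95% interval -0.39 to -0.13).

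In WT hearts the order of levels per kilobase of exon was *Nnt* (85.1 CPM per kb), *Nmrk2* (22.3), *Nadk2* (15.9), *Nampt* (11.2), *Nadk* (10.1), *Sirt1* (5.89), *Nmnat1* (2.34), *Naprt* (2.11), *Nmnat3* (1.87) and *Nmrk1* (0.716). Of these neighbours, *Nmnat1* and *Naprt* overlapped between libraries, as did *Naprt* and *Nmnat3*, and the others lay apart. In KO hearts *Nnt* was at 74.9, *Nmrk2* at 42.8 and *Nadk2* at 15.3 CPM per kb, and *Nadk* (11.1) then stood above *Nampt* (10.3). The remaining order was that of WT, and *Nmnat1* and *Naprt* again overlapped. These levels depend on the length assigned to a gene. With the longest transcript in place of the joined exons, *Nnt* was at 173 and *Nmrk1* at 1.36 CPM per kb in WT. *Nmnat3* (4.33 ± 0.19) then stood above *Nmnat1* (2.67 ± 0.28) and *Naprt* (2.60 ± 0.40) in every library. The first 6 places and the last remained, but the WT libraries of *Nampt* (12.2 to 12.9) and *Nadk* (11.6 to 12.7) overlapped.

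**Figure D3:**
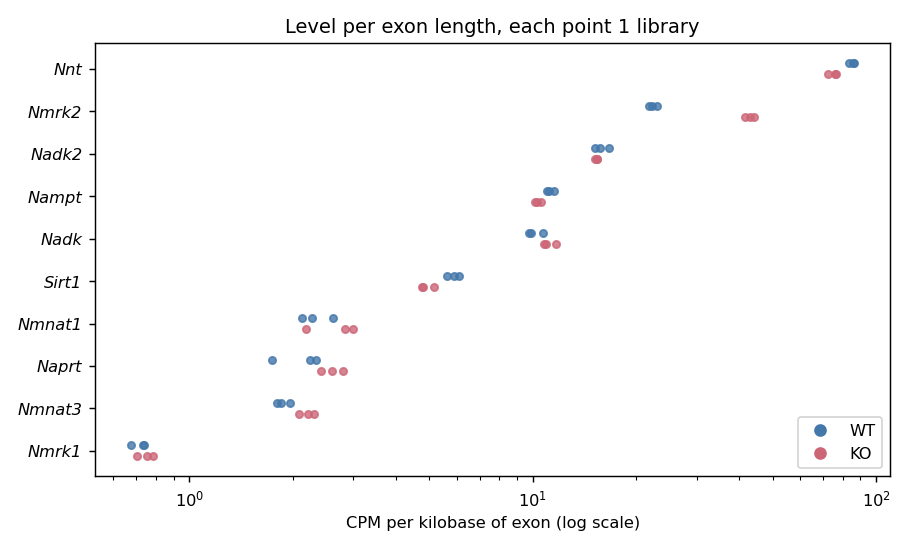
Level of the 10 NAD genes per kilobase of exon, on a log axis in CPM per kb, with 1 point for each library, WT in blue and KO in red. *Nnt* is highest at 83.4 to 86.3 CPM per kb in WT, *Nmrk1* is lowest at 0.677 to 0.738, and *Nmrk2* is the gene whose points part most.

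The rest of the pathway was described by 7 lists that hold none of the 10 genes. Of their 73 genes 59 were in the table and tested, and the others were not analysed here. Of the 59, 15 rose, 11 fell (7 without KO a) and 33 did not pass the threshold, and the median log2 fold change was 0.0015. The share that passed, 44.1%, stands beside 30.3% of all genes, and the lists were drawn up with results of these data known. The adjusted p-values that follow are the Benjamini-Hochberg values of edgeR's quasi-likelihood fit over 13804 genes.

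De novo synthesis from tryptophan and the other routes to the last step were represented by 2 of 11 genes, and neither passed. *Afmid*, the formamidase of the kynurenine route, was at 20.8 CPM in WT and at 23.0 CPM in KO (log2 fold change 0.14), and *Nadsyn1*, NAD synthetase, at 12.3 and 11.6 CPM (-0.09).

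Among 5 tested genes of precursor supply, 1 rose and 1 fell. *Slc29a2*, an equilibrative nucleoside transporter, was at 19.1, 18.5 and 16.8 CPM in WT and at 32.0, 27.8 and 28.4 CPM in KO, with every KO library far above WT. Its log2 fold change was 0.70 (SE 0.0755, adjusted p = 5.78e-08). *Nt5e*, the ectonucleotidase that frees nucleosides outside the cell, fell from 26.2 ± 1.08 to 20.3 ± 1.44 CPM (log2 fold change -0.37, adjusted p = 3.01e-04). *Pnp*, which splits nucleosides, did not pass (-0.19), and neither did the mitochondrial NAD carrier *Slc25a51*, at 119 CPM in WT and at 117 CPM in KO.

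Of the 6 other sirtuins 2 rose and none passed as lower. *Sirt3*, the main mitochondrial deacetylase, went from 25.8 ± 1.11 to 30.2 ± 2.03 CPM (log2 fold change 0.23, adjusted p = 0.0121, but 0.0966 without KO c). *Sirt7*, a nucleolar sirtuin, went from 7.89 ± 0.15 to 9.65 ± 0.51 CPM (0.29, adjusted p = 0.0443). That call was lost in 7 of 13 other settings, among them DESeq2 (adjusted p = 0.140) and each library left out in turn. *Sirt5* (0.19) did not pass, except without WT c (adjusted p = 0.0346). *Sirt1* was thus lower in KO while *Sirt3* and *Sirt7* were higher, each by less than 1.5-fold.

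The list of other NAD consumers, the PARP family with *Cd38* and *Bst1*, held 17 tested genes, of which 3 rose and 5 fell. *Parp16*, a mono-ADP-ribosyltransferase of the endoplasmic reticulum, was at 2.55, 3.83 and 2.43 CPM in WT and at 7.89, 6.63 and 6.87 CPM in KO. It was the list gene with the largest absolute difference on the log2 scale, at 1.26 (SE 0.164, adjusted p = 1.31e-06). *Parp11* also rose (0.38, adjusted p = 0.00114), as did *Parp6* (0.27, adjusted p = 0.00835, but 0.0604 without WT a and 0.0571 without KO c). *Parp3*, which acts in repair of DNA breaks, fell from 5.21 ± 0.46 to 2.94 ± 0.26 CPM (-0.82, adjusted p = 2.86e-04). *Parp14* fell from 40.0 ± 0.67 to 29.3 ± 1.12 CPM (-0.45, adjusted p = 1.70e-06). *Parp9* fell with -0.27 (adjusted p = 0.00836), a call lost without KO a (0.0646) and without KO b (0.0532). *Parp10* fell with -0.30 (adjusted p = 0.0186), a call lost in 4 of 13 other settings: DESeq2 (0.0628) and without WT b (0.119), KO a (0.0659) or KO b (0.0934). *Parp12* (-0.13) did not pass. *Cd38*, an NAD glycohydrolase, fell from 19.4 ± 0.54 to 16.4 ± 0.69 CPM (-0.24, adjusted p = 0.0210), a call lost with DESeq2 (0.0742) and without KO a (0.0531) or KO c (0.0909). *Parp1*, the main nuclear PARP, was at 126 ± 4.84 CPM in WT and at 129 ± 4.59 CPM in KO with overlapping libraries. *Parp16*, *Parp6* and *Parp3* lie on the chromosome of *Pkm*, as do *Nt5e*, *Nnmt* and *Me1* of other lists. Of these, *Nnmt* and the NADPH list gene *Me1* (-0.01) did not pass. *Parp6* ends 6083 bases before *Pkm*, and *Parp16* lies 5.52 Mb from it.

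Among 8 genes of clearance, hydrolysis and repair, 1 rose and 1 fell. *Noct*, listed in the table under its older symbol *Ccrn4l*, encodes nocturnin, a rhythmically expressed phosphatase of NADP and NADPH. It was at 60.1, 54.0 and 53.5 CPM in WT and at 28.4, 30.1 and 30.5 CPM in KO. The libraries lay far apart, with a log2 fold change of -0.91 (SE 0.0600, adjusted p = 3.08e-12). *Hddc3*, a phosphatase of NADPH, was at 3.83 ± 0.61 CPM in WT and at 5.65 ± 1.57 CPM in KO (0.55, adjusted p = 0.0243) with overlapping libraries, a call lost without WT b, KO a or KO b (adjusted p = 0.0962, 0.134 and 0.157) and with DESeq2 (0.0566). *Nnmt*, which methylates nicotinamide, was at 1.85 and 1.20 CPM and did not pass (-0.64), but passed without KO b (adjusted p = 0.0422) and in the exact test of edgeR (0.0430).

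Of 12 genes that regenerate NADPH, 4 rose and 3 fell. *Idh2*, the mitochondrial NADP-dependent isocitrate dehydrogenase and the most abundant of them, fell from 1485 ± 54.9 to 1298 ± 15.8 CPM (log2 fold change -0.19, adjusted p = 1.42e-06). *Idh1*, its cytosolic counterpart, passed as lower (-0.15, adjusted p = 0.0335), a call lost in 6 of 13 other settings, which were DESeq2 (0.0958) and every library left out except WT b (0.0552 to 0.114). *Aldh1l1*, a cytosolic folate enzyme, fell from 6.72 ± 0.45 to 4.88 ± 0.37 CPM (-0.47, adjusted p = 0.00934). The mitochondrial folate enzymes *Aldh1l2* (0.26, adjusted p = 2.59e-04) and *Mthfd2* (0.24, adjusted p = 0.00975, but 0.0565 without KO b) rose, as did *Pgd* of the pentose phosphate pathway (0.18, adjusted p = 0.00480). *H6pd* passed as higher (0.16, adjusted p = 0.0248), a call lost in 5 of 13 other settings, which were DESeq2 (0.0685) and without WT b, WT c, KO b or KO c (0.0503 to 0.139). *G6pdx*, the first enzyme of the pentose phosphate pathway, did not pass (-0.03), nor did *Mthfd1*, a cytosolic folate enzyme, at 55.9 CPM in WT and at 58.4 CPM in KO (0.06).

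Among 9 genes known to regulate *Nampt*, *Nmrk2* or *Sirt1*, 4 rose and 1 fell. *Hic1*, which encodes a repressor of *Sirt1* transcription, was at 19.2, 18.2 and 20.6 CPM in WT and at 37.4, 35.8 and 34.4 CPM in KO. This was a log2 fold change of 0.89 (SE 0.0685, adjusted p = 7.20e-11). Whether it bears on the level of *Sirt1* was not tested. *Ppara*, the lipid-sensing receptor through which *Nmrk2* can be induced in muscle cells, went from 68.3 ± 1.51 to 94.4 ± 2.89 CPM (0.47, adjusted p = 5.13e-09). A link to the level of *Nmrk2* was not tested either. *Foxo1* rose as well (0.25, adjusted p = 9.27e-04). The AMPK subunit *Prkaa1* passed as higher (0.19, adjusted p = 0.0177), a call lost without WT c (0.0793), KO a (0.0769) or KO b (0.0646). *Ppargc1a*, which encodes a coactivator of mitochondrial biogenesis, fell from 338 ± 2.72 to 282 ± 2.73 CPM (-0.26, adjusted p = 1.23e-07). The clock genes *Arntl* (-0.22, but adjusted p = 0.0388 without WT c) and *Clock* (-0.05), whose products drive *Nampt*, did not pass, nor did *Foxo3* (0.04) and *Prkaa2* (0.04).

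**Figure D4:**
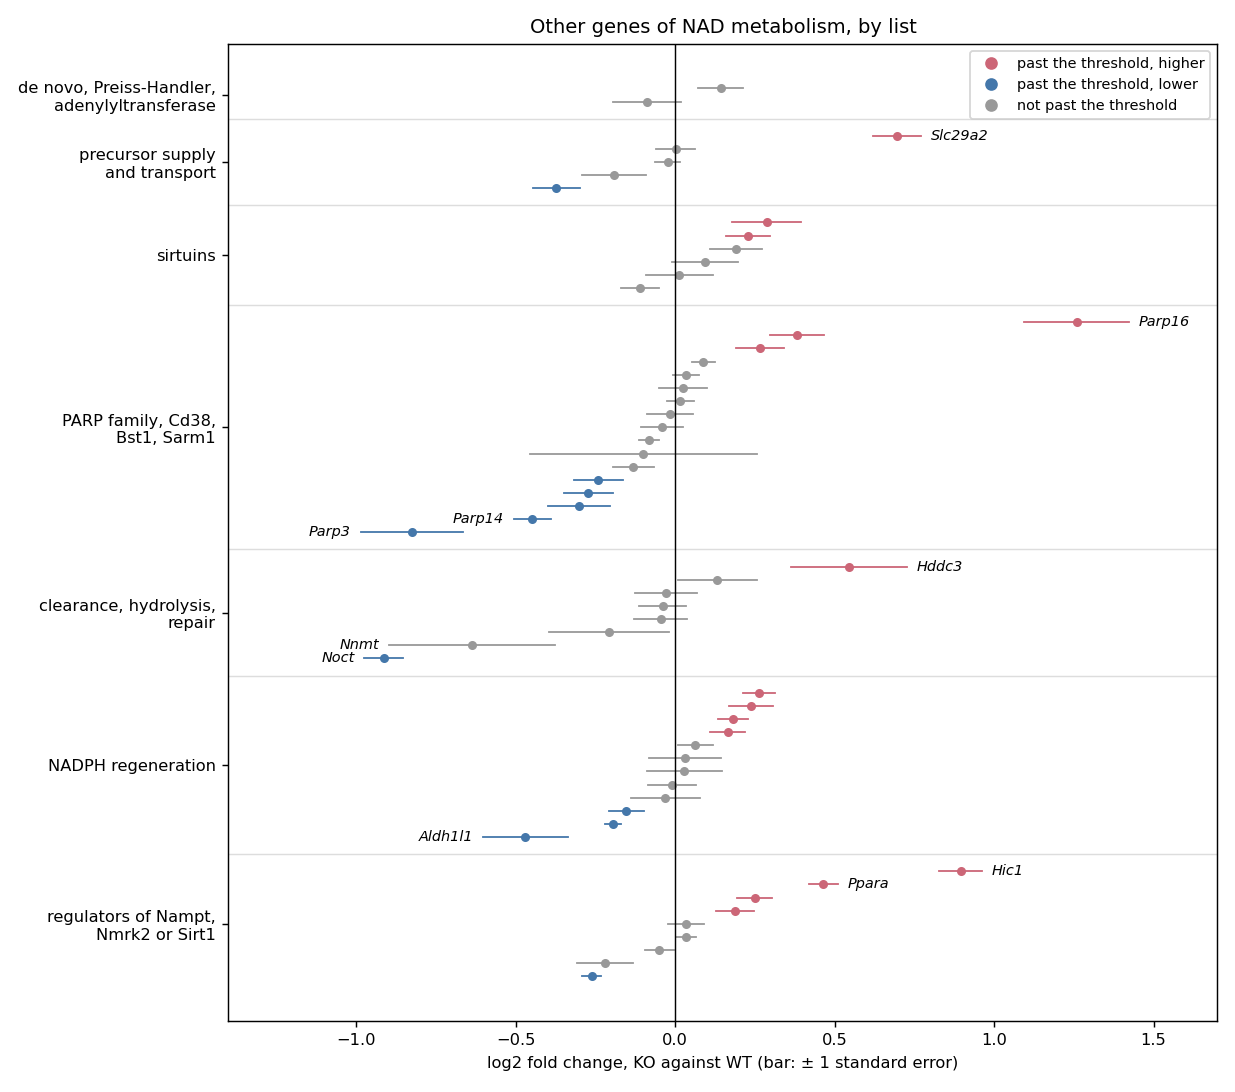
Log2 fold change in KO against WT hearts of the 59 tested genes of 7 further lists of NAD metabolism, with bars of ± 1 standard error and names for values beyond 0.4 in either direction. Red marks the 15 genes that passed the threshold as higher, blue the 11 that passed as lower and grey the other 33, from *Parp16* at 1.26 to *Noct* at -0.91.

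Markers of other cells and of tissue state differed between the same libraries, as did 30.3% of all genes tested. Atrial markers summed to 605 to 615 CPM in WT and 1020 to 1041 CPM in KO, with *Myl4*, *Myl7* and *Nppa* of 6 tested genes past the threshold and at least 1.5-fold higher. Immediate early genes summed to 431 to 468 CPM in WT and 119 to 129 CPM in KO, all 5 lower and *Fos*, *Jun*, *Egr1*, *Atf3* and *Ier2* each by at least 1.5-fold. The skeletal muscle markers *Myh3* and *Myh8*, which belong to embryonic and perinatal myosin, summed to 2.37 to 3.98 CPM in WT and 4.45 to 4.93 CPM in KO, 1 lower and 1 higher, while *Myod1*, *Myog*, *Myf5*, *Pax7* and *Actn3* were not in the table. The hepatocyte markers *Alb* and *Afp* summed to 20.9 to 23.6 CPM in WT and 8.53 to 9.17 CPM in KO, and both fell by at least 1.5-fold.

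Lists for supporting and other cells are given as counts and summed CPM in the same way. Beside these counts stand 14.6% of all genes tested that passed as higher and 15.7% as lower. Of 6 endothelial markers 3 fell (1066 to 1071 CPM summed in WT, 993 to 1008 in KO), as did 3 of 6 fibroblast markers (3254 to 3295 and 3016 to 3074) and 3 of 5 mural markers (365 to 374 and 328 to 337). Of 5 epicardial markers 3 rose, *Krt19* by at least 1.5-fold (120 to 124 and 136 to 149). Of 5 immune markers *C1qa* fell by at least 1.5-fold (31.3 to 33.6 and 29.3 to 37.1). Of 3 erythroid markers 1 rose and 1 fell (33.5 to 35.5 and 35.8 to 43.0), and the brown fat marker *Cidea* did not pass (6.02 to 6.77 and 5.37 to 6.20). Of 3 ventricular markers *Hey2* rose and *Myl2* fell (5127 to 5736 and 4667 to 4926). Whether any of these shifts takes part in the differences of the NAD genes was not tested.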

How the data were processed

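Heart RNA of WT and *Pkm1*-KO embryos was sequenced after removal of ribosomal RNA, in 3 libraries for each genotype. The authors trimmed reads with cutadapt 1.18 and used Hisat2 and StringTie with mm10, per the submitters' processing notes; the counting program is not given in the sources used here. The authors deposited unnormalized counts for each gene symbol and library in a table in which every gene had at least 59 counts in all. Of the authors' own comparison, deposited in the same table, the log2 values (fold change and average level) and the p-values, raw and adjusted, were not used.

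The fit used edgeR 4.0.16 under R 4.3.3, with filterByExpr, which left out 5 genes, TMM scaling, the quasi-likelihood test on genotype alone and Benjamini-Hochberg adjustment over 13804 genes. The steps were tested on simulated data. The labels number the 3 samples of a genotype as replicates, and the paper describes them as biological replicates. How many embryos stand behind a library is not given in the labels. The common biological coefficient of variation in the fit was 3.42%. The SDs, intervals and p-values rest on the spread between these libraries, which may be smaller than the spread between embryos. For a single gene, an exact permutation test of 3 against 3 cannot give a p below 0.10. Positions, exon lengths and coding sequences are from GENCODE M21 (GRCm38), with Biopython 1.88 for the alignment. Of 73 list genes 59 matched, 3 of them through an older symbol. Figures were drawn with matplotlib 3.10.9.

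The 10 genes and all lists were chosen with earlier results of these data known. Named from each list were up to 4 genes past the threshold with the smallest adjusted p and the gene with the largest absolute log2 fold change among those that missed it, and from marker lists genes past it with at least 1.5-fold. *Nadsyn1*, *Slc25a51*, *Parp1*, *Parp6*, *Parp9*, *Parp10*, *Cd38*, *H6pd*, *Idh1*, *Mthfd2*, *G6pdx*, *Me1*, *Clock*, *Foxo3*, *Prkaa1*, *Prkaa2* and *Bst1*, the neighbours and overlapping genes, *Myh7*, *Hey2*, *Myl2* and *Cidea* were added after their values were seen. Alternatives were RLE size factors, DESeq2 1.42.0, edgeR's exact test, no filter, removal of genes on X and Y, a minimum of 10 counts per library, each library left out in turn and, added after seeing the data, the ribosomal gene *Rn45s* left out, which took 2.21% to 2.48% of counts in WT and 2.70% to 2.79% in KO. For levels per length, the longest transcript was the alternative.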

Additional observations from a re-analysis of the deposited data

How the results depend on the processing

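Over 13 other settings, 8 of the 10 NAD genes kept their direction and their side of the threshold, among them *Nmrk2*, *Nnt* and *Sirt1*. The exceptions were *Nadk* and *Nampt*, which passed the threshold without WT c, with log2 fold changes of 0.17 and -0.14. With a library left out, 1 to 2 NAD genes were higher (2 without WT c) and 2 to 3 lower. Of the 59 further pathway genes 26 kept direction and side in all 13 settings, 11 lost a call, 5 gained one, and 17 that did not pass changed sign. With a library left out, 10 to 14 of them were higher and 7 to 12 lower (15 and 11 with all libraries), and the 7 were counted without KO a. Over all genes these counts were 1479 to 2013 higher and 1704 to 2306 lower. DESeq2 called 1362 higher and 1639 lower. With the longest transcript as length, the ratio of *Nmrk2* to *Nmrk1* was 16.4 in WT and 30.2 in KO, and that of *Nmrk2* to *Nampt* 1.78 and 3.72. Per kilobase of joined exons, the ratios of 31.2 and 57.4 to *Nmrk1* ran from 30.7 to 31.7 and from 54.8 to 58.8 with a library left out, and those of 1.99 and 4.15 to *Nampt* from 1.95 to 2.02 and from 4.11 to 4.20. No paired analysis was possible because the library columns name only the genotype. Depth limits *Nmrk1* most, with 38 to 54 counts a library.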
